A study of Mus musculus with 12 samples.

Results

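Transcripts of the surfactant proteins and of other genes that mark the alveolar type 2 cell were followed in lungs of newborn mice exposed to high oxygen, with or without a gold drug given beforehand. The set held 10 genes chosen by name for their known roles, namely Sftpa1, Sftpb, Sftpc, Sftpd, Abca3, Napsa, Slc34a2, Lamp3, Lpcat1 and Etv5, out of 23478 genes in the count table. The choice was made with earlier results of these data known. Counts of the 10 genes beside shares of all genes are therefore descriptions. All 10 passed the filter on low counts, as did 15761 genes in all. Pups were of the C57/Bl6 strain, and the labels name no genetic change. On day 0 each group received an intraperitoneal dose of aurothioglucose (ATG, 25 mg/kg), a gold drug known to block thioredoxin reductase, or of saline. Oxygen above 95% (hyperoxia) or room air followed for 72 h, and whole lungs were taken after their lavage fluid had been removed. There were 3 samples each of ATG hyperoxia, saline hyperoxia, ATG room air and saline room air. The labels do not tell animals, litters or pools apart, so the p-values measure the spread between these samples, which may be technical.

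Type 2 cells line part of the alveolus, where they make surfactant, a film of phospholipid and a few proteins that lowers surface tension and keeps airspaces open after birth. Lipid and the small hydrophobic proteins SP-B (Sftpb) and SP-C (Sftpc) are packed together in lamellar bodies and secreted. The larger collectins SP-A (Sftpa1) and SP-D (Sftpd) bind microbes and take part in host defence, and they are also made by club cells of the airways. Type 2 cells are the progenitors of the flat type 1 cells, and high oxygen injures the alveolar epithelium of newborn rodents.

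The libraries held 14331749 to 20486735 counts. The 10 genes took 1.33% to 1.72% of the counts of a library, and Sftpc alone ranked between the 3rd and the 6th most abundant gene. The lowest count of any of the 10 genes in any library was 1696, for which counting error alone is 2.43%, so the spread between samples is the larger error. Transcripts of tissue beside the lung stood out in 4 libraries. The summed level of 9 cardiomyocyte markers reached 7044 CPM (counts after scaling each library to the same total) in replicate 2 of ATG hyperoxia and 3190 CPM in replicate 2 of saline hyperoxia, against at most 984 CPM elsewhere. The atrial peptide gene Nppa had 1108 and 269.8 CPM in those 2 libraries and at most 3.55 CPM in the rest. Replicate 1 of saline hyperoxia held 279 CPM of 7 skeletal muscle markers, with 175 CPM of Myh8, against at most 45.9 CPM for the list elsewhere. The summed level of 6 thymocyte markers was 61.4 CPM in replicate 2 and 21.7 CPM in replicate 3 of saline hyperoxia, against at most 12.4 CPM elsewhere. Each saline hyperoxia library thus stood out for at least 1 of the heart, muscle and thymocyte lists, and no fit of the saline pups was free of them. By Xist and Y-linked transcripts the groups held 1 female and 2 males in ATG hyperoxia, 2 females and 1 male in saline hyperoxia, 2 females and 1 male in ATG room air, and 3 males in saline room air.

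Levels are given in CPM after TMM scaling of the library totals. Per kilobase of exon in saline room air, Sftpc was far above the rest at 5501 CPM per kb. Sftpb followed at 688, Slc34a2 at 635 and Sftpa1 at 605 CPM per kb. Lamp3 stood at 157 and Sftpd at 89.4 CPM per kb. Etv5, Lpcat1, Napsa and Abca3 had 48.1, 45.2, 43.4 and 32.0 CPM per kb. ATG room air had the highest mean level of 8 of the 10 genes, a count of 6 with RLE size factors or library totals, where Sftpb and Napsa were marginally higher in saline hyperoxia, and saline room air had the lowest mean of 5.

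**Figure D1:**
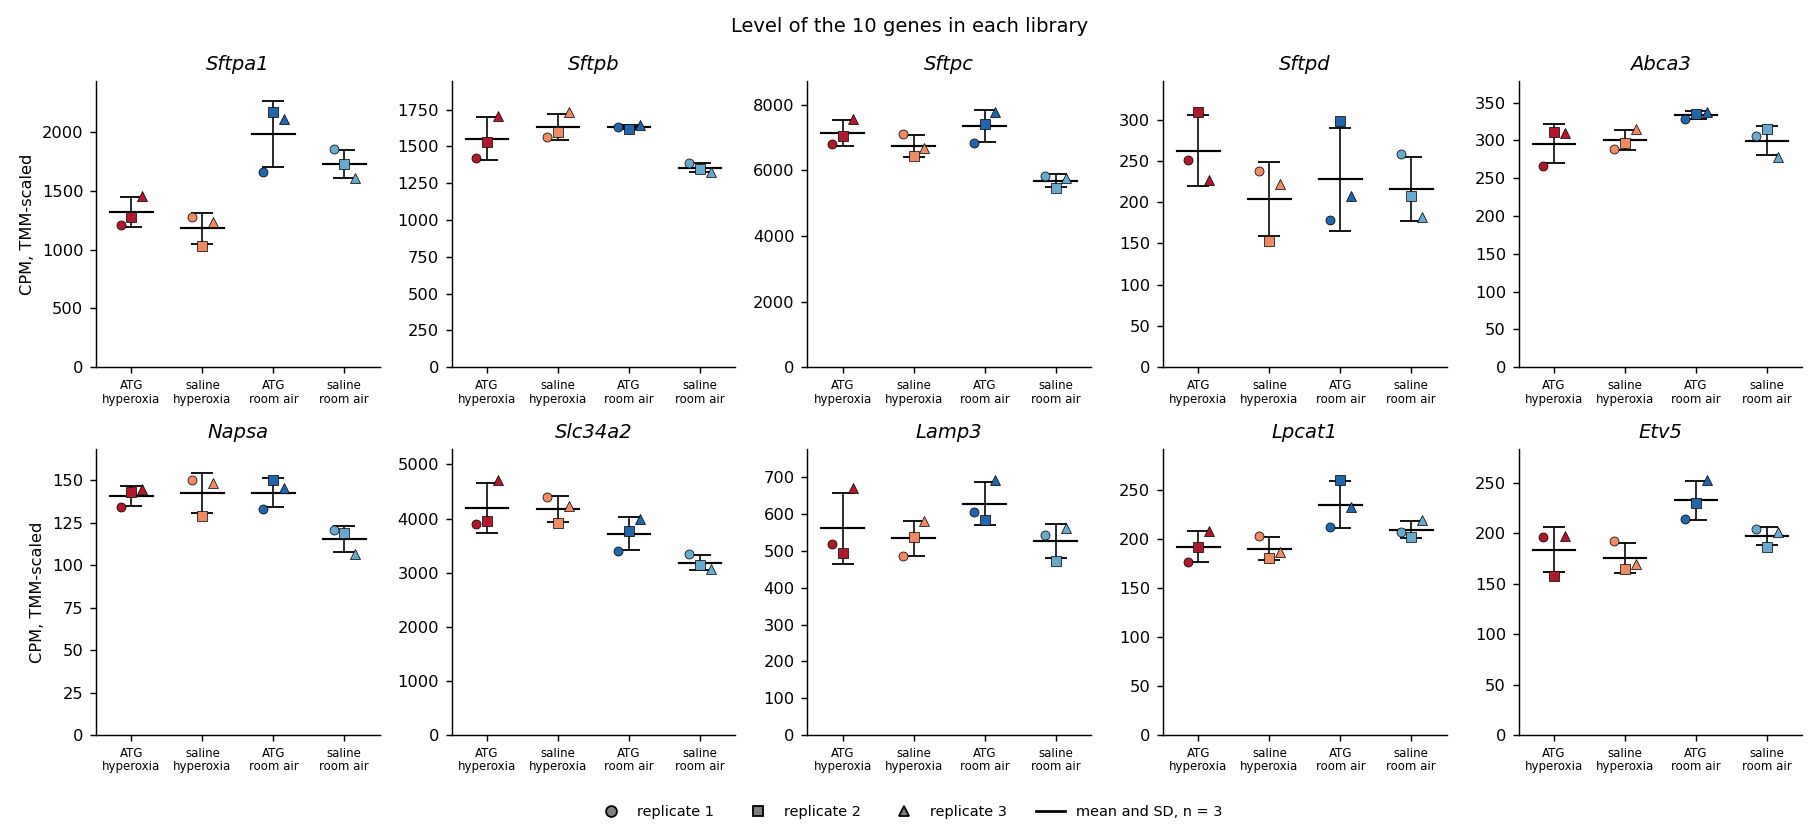
Level of each of the 10 genes (CPM after TMM scaling, vertical axis) in every sample, with the 4 groups along the horizontal axis; points are samples and bars the mean and SD of 3. Sftpa1 is lower in all 6 hyperoxia samples, at 1030 to 1461 CPM, than in all 6 room air samples, at 1613 to 2176 CPM.

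Upstream sequence is shown for 3 genes that the oxygen comparison separated, Sftpa1, Sftpb and Slc34a2, because Sftpa1 fell where the other 2 rose in saline pups. The 250 bases before the RefSeq start site are printed 5′ to 3′ on the gene's strand (RefSeq, GRCm38.p6). Capitals mark a match to a searched motif.
Sftpa1 (chr14:41131538-41131787, plus strand): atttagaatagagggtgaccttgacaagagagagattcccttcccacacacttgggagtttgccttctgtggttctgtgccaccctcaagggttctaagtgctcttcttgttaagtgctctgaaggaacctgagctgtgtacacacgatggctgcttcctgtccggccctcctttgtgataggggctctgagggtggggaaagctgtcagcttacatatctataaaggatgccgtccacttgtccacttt
Sftpb (chr6:72304360-72304609, plus strand): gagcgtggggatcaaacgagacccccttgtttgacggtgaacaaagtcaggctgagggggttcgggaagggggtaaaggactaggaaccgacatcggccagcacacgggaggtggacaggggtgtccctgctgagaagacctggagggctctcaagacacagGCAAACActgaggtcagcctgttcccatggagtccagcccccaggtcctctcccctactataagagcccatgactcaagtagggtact
Slc34a2 (chr5:53049103-53049352, plus strand): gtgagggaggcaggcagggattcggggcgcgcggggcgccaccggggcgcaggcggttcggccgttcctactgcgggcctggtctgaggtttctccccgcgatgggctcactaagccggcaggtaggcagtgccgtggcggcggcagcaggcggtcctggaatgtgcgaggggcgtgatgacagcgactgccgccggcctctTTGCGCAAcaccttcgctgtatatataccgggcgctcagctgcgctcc
Windows of 300 bases, from 250 before to 50 after the start, were available for 7 of the 10 genes in 8 windows. Both strands were searched for 4 motifs of factors known in lung epithelium, the NKX2-1 core CACTTGA, the FOXA motif TGTTTNC, the C/EBP motif TTGCNNAA and the ETS motif CCGGAAG. Among all 32851 promoter windows these were found in 3.06%, 20.5%, 10.8% and 8.86%. The Sftpb window held a FOXA match on the opposite strand, GCAAACA, whose first base lies at -88 from the start. The Slc34a2 window held the palindrome TTGCGCAA, a C/EBP match on both strands, at -48. Lamp3 had FOXA matches at -162 and -92, and Etv5 had one at -183. None of the 4 motifs was in the Sftpa1, Abca3 or Lpcat1 windows, which says only that those letters are not there. Sftpc, Sftpd and Napsa had no window.

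Transcripts of the hydrophobic surfactant proteins and of a protease of SP-B processing were called higher with oxygen in saline pups, close to the threshold. Sftpb, whose product is needed for the surface film and for lamellar bodies to form, lies at chr6:72304610-72314373 (all gene positions are RefSeq, GRCm38.p6, and span exons and introns). It had 1423, 1529 and 1708 CPM in ATG hyperoxia, 1565, 1596 and 1736 in saline hyperoxia, 1634, 1620 and 1646 in ATG room air, and 1387, 1349 and 1328 in saline room air. Each of the other 3 groups lay wholly above saline room air, and they overlapped one another. Sftpb rose in saline hyperoxia over saline room air by a log2 fold change of 0.27 ± 0.08 (SE; adjusted p = 0.0408 by edgeR's quasi-likelihood test over all genes, 3 samples a group). In whole lung, more type 2 cells and more RNA per type 2 cell cannot be told apart, nor fewer cells and less RNA. After ATG the difference was -0.07 ± 0.08 (adjusted p = 0.609).

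Sftpc, a hallmark transcript of type 2 cells, lies at chr14:70520941-70524081. It had 6807, 7062 and 7566 CPM in ATG hyperoxia, 7102, 6440 and 6680 in saline hyperoxia, 6827, 7408 and 7792 in ATG room air, and 5840, 5459 and 5766 in saline room air. Saline room air again lay below all 9 other samples. Sftpc rose with oxygen in saline pups by 0.24 ± 0.07 on the log2 scale (adjusted p = 0.0473, edgeR), while after ATG the difference was -0.04 ± 0.07 (adjusted p = 0.788).

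Napsa encodes napsin A, an aspartic protease that cleaves the SP-B precursor in type 2 cells. It lies at chr7:44572445-44586846, where the annotation holds an antisense transcript, and the treatment of strand in the counting is not given in the sources used here. Napsa had 134, 143 and 145 CPM in ATG hyperoxia, 150.5, 129 and 149 in saline hyperoxia, 133, 149.97 and 145 in ATG room air, and 121, 119 and 107 in saline room air. The same layout held as for Sftpb and Sftpc, with the 3 saline room air samples below the rest. Napsa rose with oxygen in saline pups by 0.31 ± 0.08 (log2, adjusted p = 0.0339, edgeR), against -0.02 ± 0.08 after ATG (adjusted p = 0.911).

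These 3 calls in saline pups were close to the threshold. Saline room air held only males, and the other groups held both sexes. With sex as a covariate none of the 3 calls passed. Without the 3 libraries that held heart or skeletal muscle transcripts none of them passed (adjusted p = 0.0696 for Sftpb, 0.210 for Sftpc and 0.0902 for Napsa), at differences of 0.37, 0.25 and 0.38. That fit left replicate 3 of saline hyperoxia, which itself held thymocyte transcripts. Without replicates 2 and 3 of saline hyperoxia, the libraries with thymocyte transcripts, they did not pass either (adjusted p = 0.381 for Sftpb, 0.118 for Sftpc and 0.0977 for Napsa, edgeR), at differences of 0.21, 0.32 and 0.38. Each also failed when any single saline room air sample was left out, or replicate 1 or 3 of saline hyperoxia, and Sftpb failed without replicate 2 of saline hyperoxia or replicate 1 or 3 of ATG room air, and Sftpc without replicate 1 of ATG hyperoxia. Over the 12 fits that left out 1 library, the differences stayed between 0.22 and 0.31 for Sftpb, 0.21 and 0.29 for Sftpc, and 0.26 and 0.38 for Napsa.

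The collectin Sftpa1 moved the other way, and did so under both injections. Sftpa1, at chr14:41131788-41136373, had 1213, 1281 and 1461 CPM in ATG hyperoxia, 1275, 1030 and 1237 in saline hyperoxia, 1665, 2176 and 2113 in ATG room air, and 1855, 1727 and 1613 in saline room air. No hyperoxia sample reached the lowest room air sample. Sftpa1 fell by 0.55 on the log2 scale in saline pups (SE 0.11, adjusted p = 0.00738, edgeR) and by 0.59 after ATG (SE 0.11, adjusted p = 0.00347, edgeR). These comparisons share no sample, but the spread behind both tests was estimated from all 12 samples together. The mean was 1318 ± 128 CPM in ATG hyperoxia against 1985 ± 279 in ATG room air, and 1181 ± 132 in saline hyperoxia against 1732 ± 121 in saline room air (SD, n = 3). Both calls held without any single library. The call in saline pups was lost without the 3 libraries with heart or muscle transcripts (-0.47 ± 0.15, adjusted p = 0.107, edgeR), where 1 saline hyperoxia sample remained and was assumed to vary like the other groups, and likewise without the 2 libraries with thymocyte transcripts (-0.44 ± 0.16, adjusted p = 0.167). The call after ATG held in both fits (-0.54 ± 0.12, adjusted p = 0.0101, and -0.59 ± 0.11, adjusted p = 0.00392, edgeR).

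Sftpd, the other collectin, lies at chr14:41172212-41185198. It had 252, 309.7 and 226 CPM in ATG hyperoxia, 237, 153 and 222 in saline hyperoxia, 178, 298 and 207 in ATG room air, and 258, 208 and 182 in saline room air. All 4 groups overlapped, and no comparison passed the test. Sftpd differed by -0.08 ± 0.20 with oxygen in saline pups (adjusted p = 0.849) and by 0.20 ± 0.20 after ATG (adjusted p = 0.568, edgeR). Its coefficient of variation was 16.3% in ATG hyperoxia, 22.0% in saline hyperoxia, 27.5% in ATG room air and 17.9% in saline room air, the highest of the 10 genes in each group but ATG hyperoxia, where Lamp3 had 17.2%.

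Ratios within a library do not depend on how libraries are scaled to one another. Sftpa1 per Sftpc was 0.184 ± 0.00781 in ATG hyperoxia, 0.175 ± 0.0132 in saline hyperoxia, 0.270 ± 0.0250 in ATG room air and 0.305 ± 0.0215 in saline room air (SD, n = 3 each). Every hyperoxia sample, at 0.160 to 0.193, was below every room air sample, at 0.244 to 0.318. Sftpb per Sftpc overlapped between the oxygen conditions, at 0.217 ± 0.00835 in ATG hyperoxia, 0.243 ± 0.0202 in saline hyperoxia, 0.223 ± 0.0146 in ATG room air and 0.238 ± 0.00850 in saline room air. Sftpd per Sftpc overlapped between all 4 groups, at 0.0369 ± 0.00696 in ATG hyperoxia, 0.0301 ± 0.00551 in saline hyperoxia, 0.0310 ± 0.00802 in ATG room air and 0.0380 ± 0.00632 in saline room air.

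**Figure D2:**
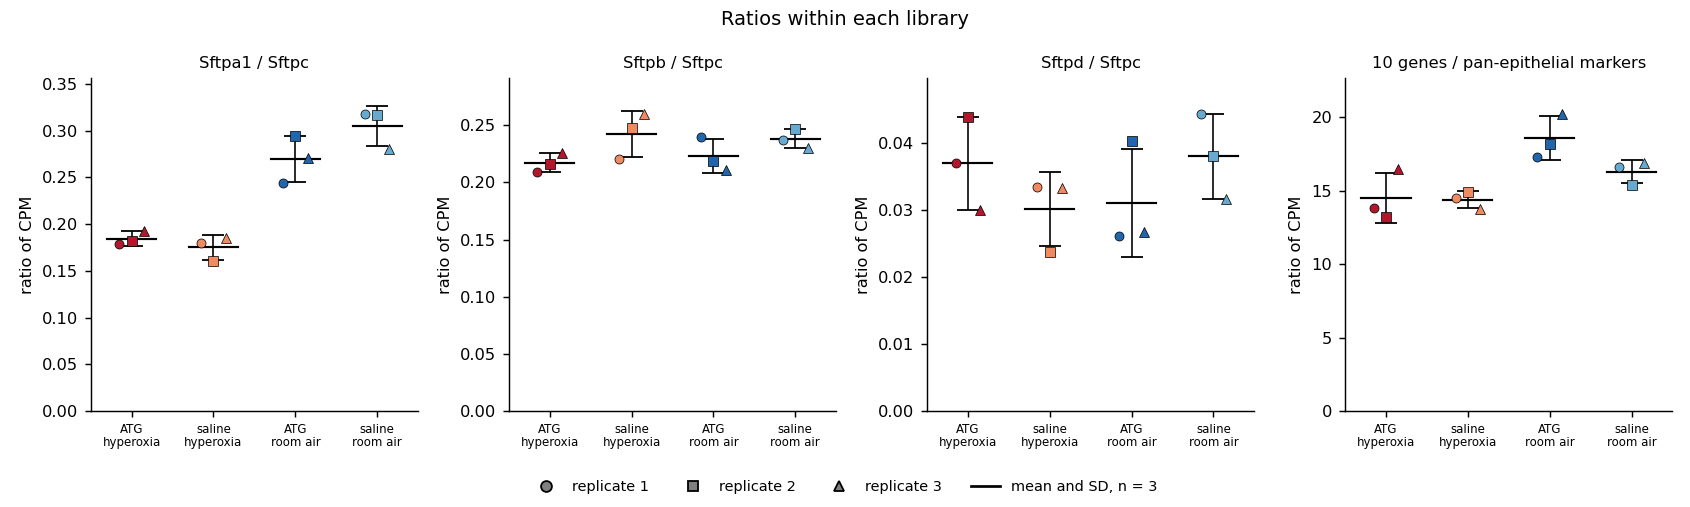
Ratio of the levels of Sftpa1, Sftpb and Sftpd to that of Sftpc, and of the 10 genes' summed level to that of 11 pan-epithelial markers, in each library (vertical axes, linear); points are samples and bars the mean and SD of 3. Sftpa1 per Sftpc is 0.160 to 0.193 in hyperoxia and 0.244 to 0.318 in room air.

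Among the genes of lipid handling, the phosphate transporter stood out. Slc34a2 takes up phosphate that surfactant phospholipid turnover releases, and lies at chr5:53049353-53071664, where an antisense transcript is annotated. It had 3903, 3961 and 4720 CPM in ATG hyperoxia, 4395, 3911 and 4225 in saline hyperoxia, 3400, 3778 and 3990 in ATG room air, and 3338, 3143 and 3068 in saline room air. Saline room air lay below all other samples, and the hyperoxia groups overlapped each other. Slc34a2 rose with oxygen in saline pups by 0.39 ± 0.09 (log2, adjusted p = 0.0124, edgeR), and the difference after ATG was 0.17 ± 0.09 (adjusted p = 0.244). The call in saline pups was lost without replicate 2 (adjusted p = 0.0501) or replicate 3 (0.0571) of saline room air, without the 3 libraries with heart or muscle transcripts (0.0572, edgeR) and without the 2 with thymocyte transcripts (0.0604). Averaged over both injections Slc34a2 rose by 0.28 ± 0.06 (adjusted p = 0.00453, edgeR).

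Abca3, which pumps phospholipid into lamellar bodies, lies at chr17:24351921-24410204. It had 266, 311 and 310.3 CPM in ATG hyperoxia, 289, 297 and 315 in saline hyperoxia, 328, 335 and 338 in ATG room air, and 306, 315 and 278 in saline room air. ATG room air was above all 9 other samples, while the remaining groups overlapped. Abca3 passed no test, with oxygen differences of 0.0028 ± 0.08 in saline pups (adjusted p = 0.989) and -0.17 ± 0.08 after ATG (adjusted p = 0.192, edgeR). Lamp3, a membrane glycoprotein of lamellar bodies at chr16:19653381-19706365, had 518, 494 and 672 CPM in ATG hyperoxia, 485, 537 and 580.1 in saline hyperoxia, 606, 583 and 694 in ATG room air, and 544, 474 and 561 in saline room air. Lamp3 overlapped between the oxygen conditions and differed by 0.02 ± 0.12 in saline pups (adjusted p = 0.942) and -0.16 ± 0.12 after ATG (adjusted p = 0.432).

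Lpcat1, an acyltransferase that makes the saturated phosphatidylcholine of surfactant, lies at chr13:73467231-73516420. It had 177, 191 and 208 CPM in ATG hyperoxia, 203, 180.1 and 187 in saline hyperoxia, 212, 260.4 and 232 in ATG room air, and 207, 202 and 219 in saline room air. After ATG the hyperoxia samples were all below the room air samples, whereas in saline pups they overlapped by a small margin. Lpcat1 fell by 0.29 after ATG (log2, SE 0.09, adjusted p = 0.0494, edgeR) and differed by -0.14 ± 0.09 in saline pups (adjusted p = 0.382). This call is the least steady of all: it passed in 4 of 24 other settings, and among the fits that left out 1 library it passed in 2 of 12, with differences from -0.34 to -0.19.

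Etv5, an ETS transcription factor that fibroblast growth factor signalling induces and that sustains the type 2 programme in mice, lies at chr16:22381313-22439570. It had 196, 158 and 197 CPM in ATG hyperoxia, 192, 165 and 169.8 in saline hyperoxia, 214, 230.4 and 253 in ATG room air, and 204, 187 and 201 in saline room air. ATG room air lay above the other groups, which overlapped one another. Etv5 fell by 0.34 after ATG (log2, SE 0.10, adjusted p = 0.0384, edgeR) and differed by -0.17 ± 0.10 in saline pups (adjusted p = 0.345). The call after ATG passed in 3 of the 12 fits that left out 1 library, which gave differences from -0.38 to -0.23, and in 10 of 24 settings in all.

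In saline pups 4 of the 10 genes were thus called higher with oxygen, against 4.7% of all genes tested, and 1 was called lower, against 4.5%. Without the 3 libraries with heart or muscle transcripts 0 of the 10 were called (4.77% of all genes in either direction), and likewise 0 without the 2 with thymocyte transcripts (3.55%). The samples did not overlap for the same numbers, 4 higher (14.6% of all genes) and 1 lower (14.9%). After ATG 0 of the 10 were called higher by edgeR (5.41% of all genes), and DESeq2 and limma-voom also called 0 higher. There 3 were called lower (6.25%), and 4 lay wholly lower (13.9%), the fourth being Abca3. Of the 10 genes, 4 had an unadjusted p under 0.05 after ATG (25.1% of all genes). The median log2 difference of the 10 genes was 0.01 in saline pups and -0.12 after ATG, against -0.0018 and 0.00079 over all genes tested. Averaged over injections, 1 was called higher (11.0% of all genes) and 3 lower (11.3%), namely Sftpa1 at -0.57 ± 0.08 (adjusted p = 0.000147), Etv5 at -0.25 ± 0.07 (0.0171) and Lpcat1 at -0.22 ± 0.06 (0.0236, edgeR). Without the 2 libraries with thymocyte transcripts Sftpa1 and Slc34a2 kept the averaged call. The Etv5 average lost its call without replicate 1 of saline room air, replicate 3 of ATG room air or replicate 2 of saline hyperoxia, and the Lpcat1 average in 8 of the 12 fits that left out 1 library.

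**Figure D3:**
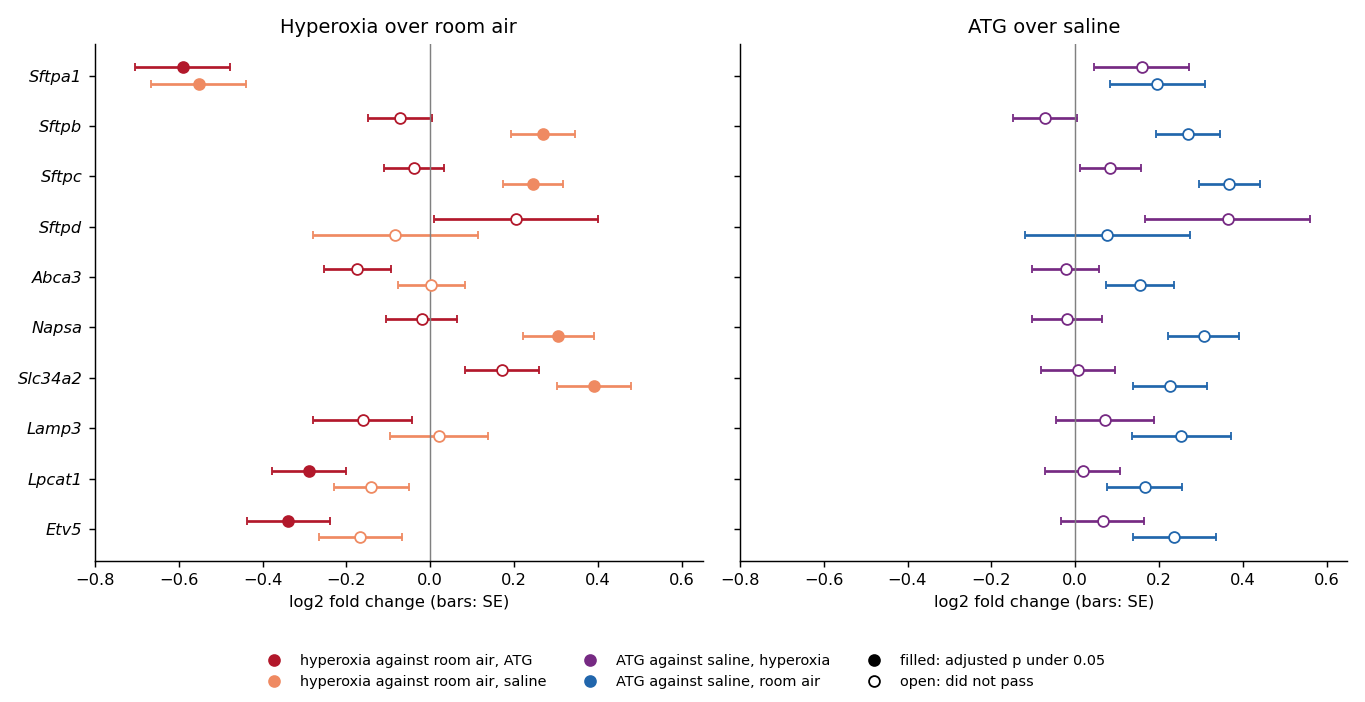
Log2 fold change of each of the 10 genes for hyperoxia against room air (after ATG and in saline pups) and for ATG against saline (in hyperoxia and in room air), with bars of 1 SE and filled points for an adjusted p under 0.05. Sftpa1 lies at -0.59 and -0.55 for oxygen, and all 10 genes lie above 0 for ATG in room air, none of them past the threshold.

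The drug comparison in room air gave small differences of 1 sign that did not pass the test. Sftpc averaged 7342 ± 486 CPM in ATG room air and 5689 ± 202 CPM in saline room air (SD, n = 3 each), a log2 difference of 0.37 ± 0.07 (adjusted p = 0.290, edgeR). The other differences ran from 0.31 for Napsa and 0.27 for Sftpb through 0.25 for Lamp3, 0.24 for Etv5, 0.23 for Slc34a2, 0.20 for Sftpa1, 0.17 for Lpcat1 and 0.15 for Abca3 to 0.08 for Sftpd. Thus 10 of 10 genes were above 0, against 52.8% of all genes tested, and 7 had samples wholly higher in ATG room air, against 6.26%. All these differences rest on the same 3 samples a group, and the genes tended to vary together between samples. They are therefore not 10 separate results. By edgeR 0 of the 10 were called (0.0% of all genes), with 6 at an unadjusted p under 0.05 (6.02% of all genes). DESeq2 called 1, Sftpc (adjusted p = 0.00259), and limma-voom called 0. Saline room air is the low group for Sftpb, Sftpc, Napsa and Slc34a2 in both comparisons. The oxygen and drug differences of these genes thus share its 3 samples, all of them male. With sex as a covariate Slc34a2 kept its oxygen call in saline pups, while Sftpb, Sftpc and Napsa lost theirs.

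In hyperoxia the drug differences ran from -0.07 for Sftpb to 0.36 for Sftpd, and 7 of 10 were above 0 (50.2% of all genes). By edgeR 0 of the 10 were called (0.00634% of all genes), 0 had an unadjusted p under 0.05 (5.69%) and 0 had groups that did not overlap (5.55% of all genes higher and 5.54% lower). DESeq2 and limma-voom also called 0. Sftpc averaged 7145 ± 386 CPM in ATG hyperoxia and 6741 ± 335 CPM in saline hyperoxia, a difference of 0.08 ± 0.07 (adjusted p = 0.952, edgeR). Averaged over oxygen, 10 of 10 drug differences were above 0 (50.8% of all genes), again from shared samples. There 4 genes had an unadjusted p under 0.05 (8.47%), but by edgeR 0 of the 10 were called (0.0444% of all genes). DESeq2 called 1 of them in that average, again Sftpc (0.23 ± 0.05, adjusted p = 0.00812), and limma-voom called 0.

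Whether oxygen acted differently after ATG was tested as an interaction. By edgeR it called 0 of the 10 genes and 0.0% of all genes, with 3 of the 10 at an unadjusted p under 0.05 (2.95% of all genes). DESeq2 and limma-voom also called 0. Those 3 were Sftpb at -0.34 ± 0.11, Sftpc at -0.28 ± 0.10 and Napsa at -0.33 ± 0.12 on the log2 scale, all with an adjusted p of 1.00. Slc34a2 had -0.22 ± 0.12, Lpcat1 -0.15 ± 0.13 and Etv5 -0.17 ± 0.14, so none of these oxygen effects was shown to differ between injections. For Sftpa1 the difference between its oxygen effects was -0.04 ± 0.16.

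Samples of the same group differed in the same direction for many of the 10 genes. Replicate 3 of ATG hyperoxia was above its group's mean for 9 of the 10, and replicate 1 of saline room air for 9. Replicate 1 of ATG hyperoxia, replicate 2 of saline hyperoxia and replicate 1 of ATG room air were each above it for 1. After group means were removed, Pearson's r between pairs of genes over the 12 samples was above 0 for 41 of 45 pairs, with a median of 0.47, as a description of samples that share library and lung. Within groups Sftpa1 followed Napsa (r = 0.903), Slc34a2 (0.900) and Sftpc (0.823). With group means kept in, Sftpa1 and Sftpc had an r of 0.05 and Sftpa1 and Slc34a2 of -0.40, so these pairs varied together within groups while the groups set them apart. The lowest within-group values were Sftpd with Lamp3 (-0.39) and Abca3 with Etv5 (-0.38).

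**Figure D4:**
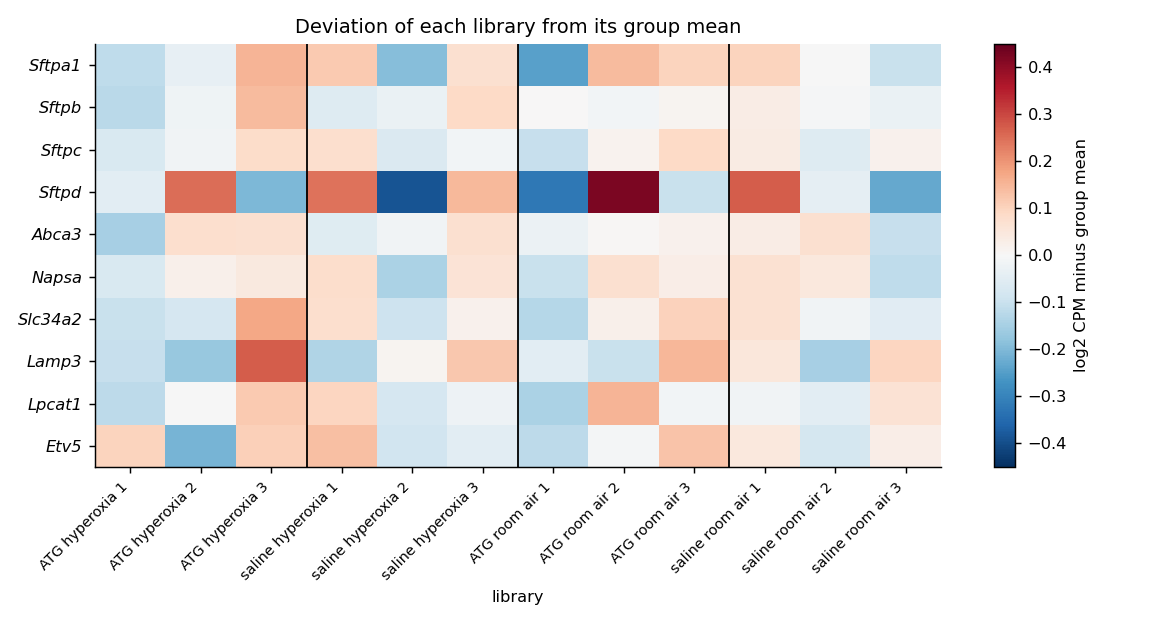
Deviation of each sample's log2 level from its group's mean (colour scale, log2 units) for the 10 genes in the 12 samples. Replicate 3 of ATG hyperoxia is above its group's mean for 9 genes, and replicate 2 of saline hyperoxia above it for 1.

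Outside the set, 11450 genes with a mean of at least 5 CPM were ranked by Pearson's r of log2 CPM with each gene over the 12 samples, as a description. Sftpa1 was most like Tubb2b (0.967), Tmem50b (0.963) and P4hb (0.956). Sftpc was most like Hc (0.915), Drg2 (0.898) and Serp1 (0.885), and Hc, the complement C5 gene, is itself a known type 2 transcript in mice. Slc34a2 was most like Csgalnact1 (0.950), Ifi30 (0.941) and Slc39a8 (0.928). For Sftpb the closest were Nabp2 (0.890), Sf3b5 (0.878) and Kdelc2 (0.846), and for Napsa they were Arsa (0.903), Dll1 (0.895) and Elovl5 (0.890). Etv5 came closest to Lancl2 (0.935), Uchl5 (0.925) and Rbm3 (0.923), and Lpcat1 to Pdap1 (0.930), Eif4h (0.923) and Gpr19 (0.921). Lamp3 came closest to Magt1 (0.909), Zbtb6 (0.899) and Spcs3 (0.882), Sftpd to Retnlg (0.899), Dcaf11 (0.876) and Arpc4 (0.870), and Abca3 to Ccdc149 (0.881), Pik3c2a (0.861) and Lypla1 (0.860).

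Other type 2 transcripts also moved in both directions. Of 20 further markers, 4 rose and 3 fell with oxygen in saline pups, and 1 rose and 5 fell after ATG. Over all genes 4.7% were called higher and 4.5% lower in saline pups, and 5.41% and 6.25% after ATG. Those are the shares to set beside each list count within an injection here and below. The falls included the lysozyme gene Lyz1, at -1.37 ± 0.16 after ATG (adjusted p = 0.000132) and -1.31 ± 0.16 in saline pups (0.000222, edgeR), and Lyz2 at -0.75 and -0.71 (adjusted p = 0.00620 and 0.0115). Lyz1 and Lyz2 are near-identical copies, so their split is uncertain, and macrophages express Lyz2 as well. The chemokine gene Cxcl15 fell by 0.56 after ATG (adjusted p = 0.00281, edgeR) and the transferrin gene Trf by 0.58 in saline pups (0.00876). Cldn18, a tight junction gene of alveolar epithelium, rose by 0.38 in saline pups (adjusted p = 0.00571). Averaged over injections 4 rose and 6 fell, against 11.0% and 11.3% of all genes. Without the 3 libraries with heart or muscle transcripts, 3 of the 20 passed in saline pups and 8 after ATG. Over the 20 markers the median difference was -0.10 after ATG and -0.07 in saline pups.

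Most regulators and most genes of the surfactant machinery did not pass the test. Of 15 type 2 transcription factors, 2 rose in saline pups and after ATG 2 rose and 1 fell, while in the average 3 rose and 2 fell (3 in all without the 3 libraries with heart or muscle transcripts). Stat3 rose by 0.46 after ATG (adjusted p = 0.00165) and 0.48 in saline pups (0.00187), and Tfcp2l1 by 0.79 (0.00243) and 0.75 (0.00508, edgeR). The falls were Id2, at -0.63 after ATG (adjusted p = 0.00484) and -0.49 in the average (0.00128), and Nfib, at -0.24 in the average (0.0248, edgeR). Whole-lung counts do not assign these changes to type 2 cells. Nkx2-1, the lung lineage factor that drives the surfactant promoters, had -0.15 ± 0.10 after ATG (adjusted p = 0.368) and -0.01 ± 0.10 in saline pups (0.962). Of 17 processing and secretion genes, 1 rose in each comparison, Anxa7 after ATG (0.34, adjusted p = 0.0388) and the protease gene Ctsh in saline pups (0.40, adjusted p = 0.0499). Neither list count of 1 held without the 3 libraries, where 0 passed in each comparison by edgeR. In the average 2 of the 17 rose and 1 fell. Over all genes 11.0% were called higher and 11.3% lower in the average, the shares to set beside each averaged count here. Within an injection the shares were 4.7% and 4.5% in saline pups and 5.41% and 6.25% after ATG. In the fibroblast growth factor list of 12, the feedback inhibitor gene Il17rd fell by 0.47 after ATG (adjusted p = 0.0162) and 0.47 in saline pups (0.0189, edgeR), and Spry2 rose by 0.50 in saline pups (0.0263), and in the average 2 of the 12 rose and 1 fell.

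The 25 lipid synthesis genes gave 3 rises and 2 falls after ATG and 5 rises and 1 fall in saline pups, a count of 1 without the 3 libraries. Averaged over injections 11 of the 25 rose and 4 fell, against 11.0% and 11.3% of all genes. Those counts were 7 and 2 without the 3 libraries with heart or muscle transcripts, and 4 and 2 without the 2 with thymocyte transcripts. Lpin2, a phosphatidate phosphatase gene, rose by 0.70 after ATG (adjusted p = 0.00345) and 0.66 in saline pups (0.00679), and the choline kinase gene Chka by 0.39 (0.00833) and 0.35 (0.0178). Fasn, the fatty acid synthase gene, fell by 0.49 after ATG (adjusted p = 0.00473) and by 0.40 in saline pups (0.0212, edgeR). Of 14 genes of surfactant uptake by alveolar macrophages, 3 rose in each comparison, and in the average 5 of the 14 rose and 1 fell. Lpl had 0.47 after ATG (adjusted p = 0.0154) and 0.54 in saline pups (0.00937, edgeR). Cd36 had 0.34 (0.0322) and 0.43 (0.0123, edgeR), although endothelium expresses Cd36 too. Lavage fluid had been removed from these lungs, and whole-lung counts do not assign these rises to macrophages. For the drug, 0 of the 206 genes of the other 19 lists passed in room air by edgeR (0.0% of all genes). Of the 206, 21 had an unadjusted p under 0.05 there, against 6.02% of all genes. In hyperoxia 0 passed by edgeR (0.00634% of all genes), and 25 had an unadjusted p under 0.05, against 5.69% of all genes.

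**Figure D5:**
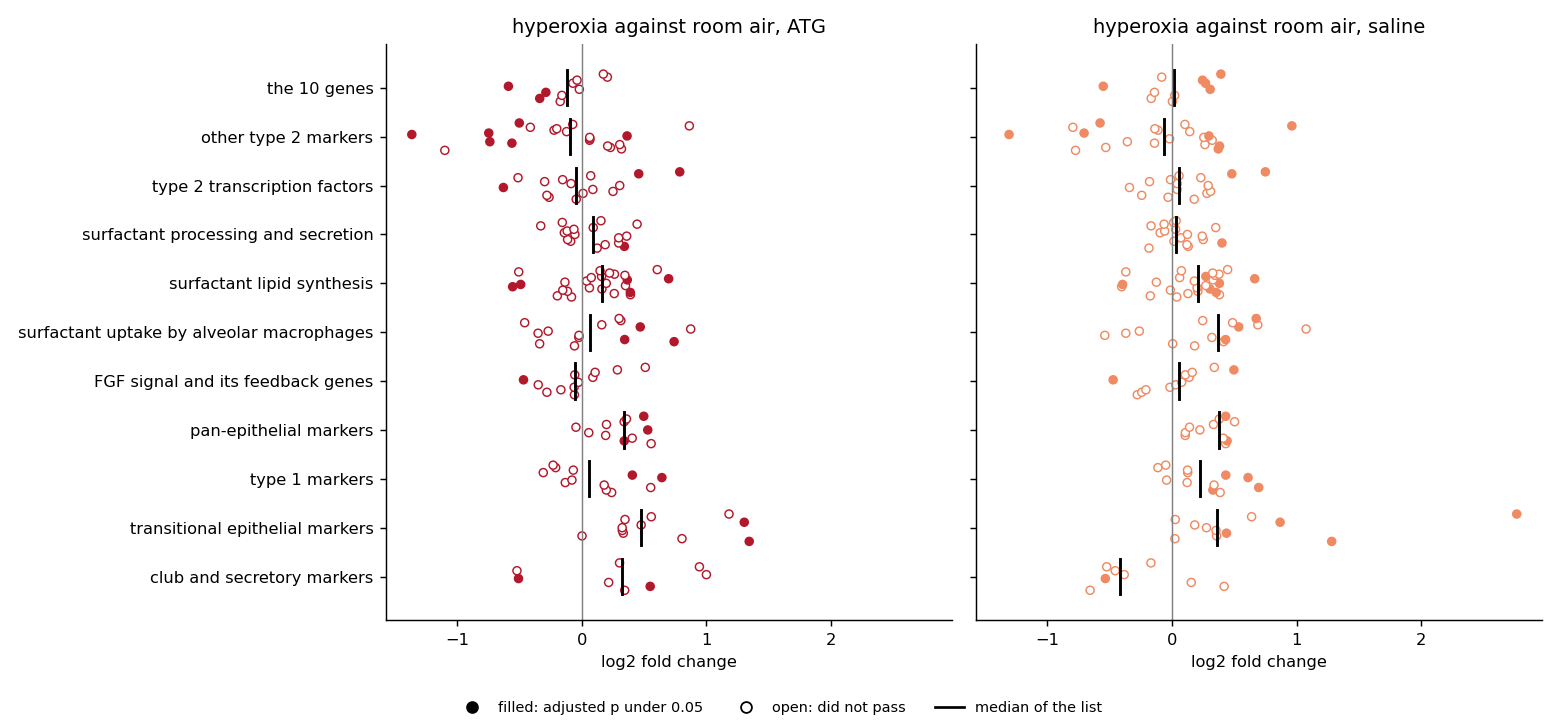
Log2 fold change of hyperoxia against room air (horizontal axis, same scale in both panels), after ATG and in saline pups, for the 10 genes and the related epithelial and surfactant lists; points are genes, filled where the adjusted p is under 0.05, and black bars are list medians. The 10 genes have a median of -0.12 after ATG and 0.01 in saline pups, and the 11 pan-epithelial markers of 0.34 and 0.38.

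Epithelial markers at large moved with oxygen beside these results. The 11 pan-epithelial markers were all counted in every library. They summed to 1045 to 1168 CPM in ATG hyperoxia, 969 to 1128 in saline hyperoxia, 861 to 925 in ATG room air and 790.0 to 857 in saline room air. These sums did not overlap between the oxygen conditions. Cdh1 made up much of them, with means of 605, 588, 478 and 433 CPM in the same order. Epcam overlapped between the oxygen conditions. Of the 11, 3 rose after ATG and 2 in saline pups, among them Cdh1 at 0.34 (adjusted p = 0.0186) and 0.44 (0.00566, edgeR), while Epcam had 0.19 (0.207) and 0.11 (0.539). The shares of all genes called higher were 5.41% after ATG and 4.7% in saline pups. Averaged over injections 8 of the 11 rose, against 11.0% of all genes, a count of 7 without the 3 libraries with heart or muscle transcripts and 5 without the 2 with thymocyte transcripts. The summed level of the 10 genes per pan-epithelial marker sum was 14.5 ± 1.72 in ATG hyperoxia, 14.4 ± 0.591 in saline hyperoxia, 18.6 ± 1.49 in ATG room air and 16.3 ± 0.789 in saline room air (SD, n = 3). With the mean marker level as a covariate, 0 of the 10 genes passed for oxygen in either injection by edgeR, and the differences of Sftpa1 were -0.65 ± 0.20 after ATG (adjusted p = 0.265) and -0.62 ± 0.21 in saline pups (0.313). That fit called few genes at all, 0.235% of all genes after ATG and 0.305% in saline pups, so nothing about the 10 genes is read from the count of 0. The covariate was the mean log2 level of the 11 markers, not their sum. Since 8 of the 11 markers rose in the average and the sums do not overlap, epithelial content and oxygen cannot be told apart in these data.

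Of the type 1 markers, 2 of 12 rose after ATG (5.41% of all genes) and 4 of 12 in saline pups (4.7%). They included Gprc5a at 0.64 (adjusted p = 0.00340) and 0.61 (0.00679) and Hopx at 0.40 (0.0259) and 0.43 (0.0230, edgeR). In the average, where 11.0% of all genes were called higher and 11.3% lower, 6 of the 12 type 1 markers rose. Their sums were 6634 to 7060 CPM in ATG hyperoxia, 6095 to 7271 in saline hyperoxia, 6091 to 6618 in ATG room air and 5305 to 6292 in saline room air. Of 11 markers of the transitional state between type 2 and type 1 cells, 2 rose after ATG, 4 in saline pups and 7 in the average, where 4 passed without the 3 libraries with heart or muscle transcripts and 3 without the 2 with thymocyte transcripts. Lgals3 rose by 1.30 after ATG (adjusted p = 0.000687) and by 0.87 in saline pups (0.0119), and Areg by 1.34 (0.0150) and 1.28 (0.0312, edgeR), and macrophages express Lgals3 as well. Among 8 club and secretory markers, which bear on the collectins, 1 rose and 1 fell after ATG, 1 fell in saline pups, and 1 rose and 2 fell in the average. The club cell gene Scgb1a1 had -0.52 ± 0.16 after ATG (adjusted p = 0.0520) and -0.46 ± 0.16 in saline pups (0.1004), neither of which passed. Averaged over injections Scgb1a1 fell by 0.49 (log2, SE 0.12, adjusted p = 0.00698, edgeR). That call was lost without the 3 libraries with heart or muscle transcripts (-0.47 ± 0.15, adjusted p = 0.0509, edgeR) and held without the 2 with thymocyte transcripts (adjusted p = 0.0474). The sums of these 8 markers overlapped, at 13921 to 15879 CPM in ATG hyperoxia, 12547 to 14471 in saline hyperoxia, 12693 to 21652 in ATG room air and 13715 to 19381 in saline room air. Cbr2, of the same list, went the other way from Scgb1a1. Its means were 2081 CPM in ATG hyperoxia, 1799 in saline hyperoxia, 1423 in ATG room air and 1347 in saline room air. The list's median difference was 0.32 after ATG, -0.42 in saline pups and 0.13 in the average. How far club cells contributed to the Sftpa1 difference was not tested.

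Lists of other cell types changed in few genes within each injection, and in more when the injections were averaged. By edgeR 0 of 9 ciliated, 0 of 8 immune, 0 of 9 cardiomyocyte, 0 of 4 erythroid and 0 of 4 mesothelial markers passed for oxygen under either injection, and DESeq2 also called 0 of them. At an unadjusted p under 0.05 there were 5 cardiomyocyte markers after ATG and 1 in saline pups, 1 immune marker in each, and 0 in the other 3 lists. Of 10 endothelial markers, Car4 (-0.35, adjusted p = 0.0200) and Tie1 (-0.32, adjusted p = 0.0257) fell after ATG, and 0 passed in saline pups by edgeR or DESeq2, with 3 at an unadjusted p under 0.05. Of 8 mesenchymal markers, Pdgfra fell by 0.80 after ATG (adjusted p = 0.00111) and by 0.73 in saline pups (0.00318, edgeR), and Mfap4 fell by 0.37 after ATG (0.0114). In saline pups 1 of 6 skeletal muscle and 1 of 4 thymocyte markers passed, and after ATG 0 of either did by edgeR or DESeq2, with 1 muscle marker at an unadjusted p under 0.05. The thymocyte gene, Rag1, had 1.65, 0.449 and 1.77 CPM in ATG hyperoxia, 2.68, 39.2 and 14.98 in saline hyperoxia, 2.96, 1.88 and 6.35 in ATG room air, and 2.67, 3.23 and 1.88 in saline room air. Its difference of 2.86 (adjusted p = 0.0230, edgeR) rested on replicates 2 and 3 of saline hyperoxia, without which it was 0.05 (adjusted p = 0.988). The muscle marker was not called in saline pups without the 3 libraries with heart or muscle transcripts.

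Averaged over injections, 4 of the 8 mesenchymal markers fell, with Pdgfra at -0.76 (adjusted p = 4.16e-05) and Mfap4 at -0.27 (0.00582, edgeR), against 11.3% of all genes called lower, and 1 fell without the 3 libraries with heart or muscle transcripts. Of the 10 endothelial markers 2 rose and 3 fell, a count of 1 without those 3 libraries and 2 without the 2 with thymocyte transcripts. The immune marker Cd68 rose by 0.46 (adjusted p = 0.0308, edgeR), which was not called without the 3 libraries, while 3 immune markers were called without the 2 with thymocyte transcripts. The cardiomyocyte marker Nppa had a difference of 6.16 ± 1.54 (adjusted p = 0.00987, edgeR) that rested on replicate 2 of each hyperoxia group, and it was 0.18 (adjusted p = 0.762) without the 3 libraries. Their part in the differences of the 10 genes was not tested.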

How the data were processed

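Total RNA of whole newborn lungs was amplified with NuGEN Ovation V2, made into Nextera XT libraries and read on an Illumina HiSeq as pairs of 75 bp (per the labels' protocols). The values deposited by the authors are raw read counts, 1 row per gene symbol and 1 column per sample, without normalization. The submitters' processing notes name Bowtie2, Cufflinks, DESeq and mm10, with no version. Which program counted the reads, with which annotation, and how it treated strand and reads with several matches is not given in the sources used here.

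The members and gene lists were chosen with earlier results of these data known. Columns were matched to samples by name and groups taken from the labels. Genes were kept by filterByExpr (minimum count 10, minimum total 15), normalized by TMM, and edgeR's quasi-likelihood test was run with all 12 samples and 4 group means (8 residual degrees of freedom). Two-sided p-values were adjusted by Benjamini-Hochberg over 15761 genes, with a threshold of 0.05, and the SE is the fold change divided by the root of the F statistic. The common biological coefficient of variation was 18.7%. CPM per kb used the exon union of GENCODE vM21. Genes named from the other lists had a mean of at least 5 CPM and an adjusted p under 0.05. They were among the 4 with the smallest adjusted p of their list in a comparison. Not every gene that met this rule was named, so the named genes are a selection. Nkx2-1, Scgb1a1, Ager, Epcam, Nppa and Myh8 were given whatever their p. Ager had 0.24 ± 0.14 after ATG (adjusted p = 0.298, edgeR) and 0.39 ± 0.14 in saline pups (0.0947). Likeness took the 3 genes with the highest r per member, without predicted gene models. Replicates of a group differed in their counts with a chi-square of 6.83 to 41.9 per degree of freedom, so none agreed within sampling noise. The fit was tested on simulated data first. Counting error alone is stated where given, and amplified reads are not independent molecules. The other settings tried were limma-voom and DESeq2, size factors by RLE, library totals, no filter, a replicate block, a fit of the 6 samples compared, leaving out each sample, leaving out libraries with heart or muscle transcripts, leaving out those with thymocyte transcripts (added after seeing the data), and sex or epithelial markers as a covariate. Versions were DESeq2 1.42.0, limma 3.58.1, edgeR 4.0.16 and R 4.3.3. RefSeq promoters and positions are of GRCm38.p6, the assembly mm10 names.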

Additional observations from a re-analysis of the deposited data

How the results depend on the processing

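The number of the 10 genes called for oxygen in saline pups (5) was 3 with no filter on low counts, 2 with the replicate block, 2 with sex as a covariate, 0 without the 3 libraries with heart or muscle transcripts, 0 without the 2 with thymocyte transcripts (a setting chosen after seeing the data) and 0 with pan-epithelial markers as a covariate. Leaving out 1 sample gave 1 to 5. After ATG (3) it was 1 in the fit of the 6 samples compared, 1 without the 2 libraries with atrial transcripts, 1 without the 3 libraries, 1 with sex, 0 with the epithelial covariate, and 1 to 3 leaving out 1 sample. Averaged over injections (4) it was 2 without the 2 with atrial transcripts, 2 without the 3, 2 without the 2 with thymocyte transcripts, 0 with the epithelial covariate, and 2 to 4 leaving out 1 sample. For the drug (0) DESeq2 called 1 in room air and 1 in the average. The cause was not tested. Calls over all genes moved between settings as well. For oxygen in saline pups the main fit called 740 genes higher and 709 lower. Those counts were 686 and 670 with the replicate block and 624 and 671 with sex as a covariate. Leaving out 1 sample gave 410 to 877 higher and 330 to 837 lower. After ATG 853 genes were called higher and 985 lower, and leaving out 1 sample gave 555 to 955 and 569 to 1090. The level of Sftpb in ATG room air was 1608 CPM with library totals only, against 1633 CPM.

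Same-numbered samples did not deviate together: r ran from -0.156 to 0.280 over 18 pairs, with 2 above 0.1, so the number is not taken to pair samples. The replicate block kept the calls of Sftpa1 and Slc34a2 in saline pups, and after ATG those of Sftpa1 and Etv5 (2 of the 10).

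Signs turned only for differences that had not passed. With the epithelial covariate Sftpc after ATG was 0.046, Sftpd -0.58 after ATG, -0.067 for the drug in room air and -0.74 for averaged oxygen, Abca3 -0.057 and Etv5 0.060 in saline pups, and Lamp3 0.26 after ATG and 0.36 averaged. Without the 2 libraries with atrial transcripts Sftpd was 0.098 in saline pups, its interaction -0.015, and Lpcat1 -0.015 for the drug in hyperoxia. Without the 3 libraries Sftpd was 0.053 in saline pups and Lamp3 0.052 averaged. Without the 2 libraries with thymocyte transcripts Sftpd was 0.14, Abca3 -0.053 and Lamp3 -0.12 in saline pups, and for the drug in hyperoxia Abca3 was 0.036, Slc34a2 -0.065, Lpcat1 -0.074 and Etv5 -0.063. With sex Sftpd was 0.17 in saline pups, its interaction -0.071, and Lamp3 -0.059 in saline pups. With library totals Abca3 was -0.017 in saline pups and Slc34a2 -0.00709 for the drug in hyperoxia. Leaving out 1 sample, ranges that crossed 0 were as follows. For oxygen in saline pups they were -0.042 to 0.045 for Abca3, -0.042 to 0.093 for Lamp3 and -0.20 to 0.098 for Sftpd. After ATG they were -0.052 to 0.030 for Napsa, -0.13 to 0.00028 for Sftpb and -0.071 to 0.019 for Sftpc. For the drug in hyperoxia they were -0.056 to 0.052 for Abca3, -0.075 to 0.16 for Lamp3, -0.041 to 0.078 for Lpcat1, -0.088 to 0.023 for Napsa and -0.085 to 0.059 for Slc34a2. Sftpd ran from -0.17 to 0.22 for the drug in room air and from -0.0050 to 0.20 for averaged oxygen, and the Sftpa1 interaction from -0.14 to 0.035. A fit of 6 samples gives no averaged effect or interaction. With 3 samples a group, differences the size of the smallest calls passed or failed with single libraries.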
